A study of Mus musculus with 10 samples.

Results

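Levels of 10 immediate early and cytokine feedback genes, Fos, Jun, Junb, Egr1, Atf3, Ier2, Nr4a1, Socs3, Cebpb and Cxcl1, were compared in single mouse hepatocytes around the day and along the liver lobule. They were taken by name (fos, jun, junb, egr1, atf3, ier2, nr4a1, socs3, cebpb and cxcl1 in the count tables), and all 10 were found among the 14812 gene entries of the count tables. The samples are 10 libraries of dissociated hepatocytes, the main cells of the liver parenchyma, from male C57BL/6 mice at 3 months of age on regular chow ad libitum. Livers were perfused with collagenase under ketamine and xylazine anaesthesia, and hepatocytes were enriched on a Percoll gradient before droplet capture with 10x Chromium 3' chemistry. Zeitgeber time (ZT) counts hours of the light-dark cycle from lights on: 3 libraries were made at ZT0 (A, B and C), 2 at ZT6 (A and B), 3 at ZT12 (A, B and C) and 2 at ZT18 (A and B). All groups share strain, sex, diet and isolation, and the labels give no treatment or genetic change for any group. The number of mice behind each library is not given in the labels, so p-values measure the spread between libraries only.

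Immediate early genes are transcribed within minutes of a signal such as a growth factor, a cytokine or physical stress, without new protein synthesis, and their transcripts are short-lived. Fos, Jun and Junb encode subunits of the AP-1 transcription factor, Egr1 encodes a zinc-finger factor, Atf3 a stress-induced bZIP factor, Nr4a1 an orphan nuclear receptor and Ier2 a small nuclear protein. The remaining genes belong to the cytokine response of the liver: Socs3 encodes the feedback inhibitor of signalling through the interleukin-6 receptor, Cebpb a factor that drives acute-phase genes, and Cxcl1 a chemokine that attracts neutrophils. All cells were dissociated before capture, so the levels below are those of isolated cells.

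The sequences just before the transcription start are shown for 5 of the genes because the first 4 of them, Fos, Junb, Nr4a1 and Socs3, were highest in the same libraries, while the last, Cxcl1, followed another order. The set of RefSeq starts at hand (build GRCm38.p6) covered 8 of the 10 genes and had no entry for Egr1 and Ier2. The 250 bases before the start are written 5′ to 3′ on the strand of the gene. The positions are chr12:85473640-85473889, plus strand for Fos, chr8:84978749-84978998, minus strand for Junb, chr15:101266596-101266845, plus strand for Nr4a1, chr11:117969367-117969616, minus strand for Socs3 and chr5:90890995-90891244, plus strand for Cxcl1. Capitals mark matches to TGACG (the core of the cyclic AMP response element), to TTCNNNGAA (the STAT pattern), to GCGGGGGCG (the EGR pattern) or to the NF-kB pattern, each searched on both strands.
Fos: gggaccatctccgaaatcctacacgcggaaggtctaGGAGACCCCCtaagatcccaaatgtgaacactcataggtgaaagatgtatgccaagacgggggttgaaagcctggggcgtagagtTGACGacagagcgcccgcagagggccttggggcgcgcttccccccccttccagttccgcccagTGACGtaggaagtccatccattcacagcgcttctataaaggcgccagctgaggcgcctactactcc
Junb: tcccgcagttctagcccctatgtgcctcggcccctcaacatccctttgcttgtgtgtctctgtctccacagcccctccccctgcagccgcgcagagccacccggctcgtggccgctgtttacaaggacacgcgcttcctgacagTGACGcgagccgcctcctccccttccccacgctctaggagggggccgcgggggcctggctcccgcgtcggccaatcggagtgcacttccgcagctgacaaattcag
Nr4a1: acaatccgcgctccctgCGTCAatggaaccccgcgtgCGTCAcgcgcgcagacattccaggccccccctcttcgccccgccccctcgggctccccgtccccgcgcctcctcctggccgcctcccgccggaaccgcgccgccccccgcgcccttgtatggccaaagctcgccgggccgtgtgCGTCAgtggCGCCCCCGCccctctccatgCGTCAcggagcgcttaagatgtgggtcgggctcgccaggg
Socs3: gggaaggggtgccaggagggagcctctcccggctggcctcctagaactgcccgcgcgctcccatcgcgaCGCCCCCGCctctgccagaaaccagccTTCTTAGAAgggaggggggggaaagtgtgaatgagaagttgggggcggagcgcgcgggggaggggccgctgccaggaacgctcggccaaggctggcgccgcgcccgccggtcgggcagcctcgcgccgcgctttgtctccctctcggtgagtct
Cxcl1: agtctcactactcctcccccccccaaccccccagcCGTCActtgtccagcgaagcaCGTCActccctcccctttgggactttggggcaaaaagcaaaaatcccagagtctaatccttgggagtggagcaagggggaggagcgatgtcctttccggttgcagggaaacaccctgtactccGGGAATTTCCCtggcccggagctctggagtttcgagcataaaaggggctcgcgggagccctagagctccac
The TGACG core was present in 6 of the 8 promoters, and in 17.8% of all 32851 promoter windows of that length in the RefSeq table. Nr4a1 held 4 matches, Cebpb held 3, Fos and Cxcl1 held 2 each, and Junb and Atf3 held 1 each. Socs3 was the only one of the 8 with a STAT match, 154 to 146 bases before the start (TTCTTAGAA), a pattern found in 7.02% of all windows. NF-kB matches were found before Cxcl1, where 2 matches overlap between 71 and 61 bases before the start, and before Fos, and in 7.25% of all windows. The EGR pattern, found in 2.57% of windows, was present before Nr4a1 and Socs3. No match to the full TGACGTCA, to the AP-1 pattern TGANTCA, to the CArG box or to the C/EBP pattern TTGCNNAA was found in the 8 windows, and the Jun window held no match to any pattern. These matches describe the letters in the windows only.

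The libraries held 710 to 2860 cells and 1454623 to 7144803 UMIs (unique molecular identifiers, counts of distinct captured transcripts), with 1588 to 2662 UMIs in the median cell. Levels are given as CPM, the UMIs of a gene scaled to the same total (1000000 UMIs) in each library. Hepatocyte markers (Alb, Apoa1, Ttr, Serpina1a, Fabp1 and Tat) summed to 36660 to 79293 CPM. The Kupffer cell and macrophage list summed to at most 10.8 CPM in any library, with Clec4f, C1qa, C1qb, C1qc and Csf1r at 0, and the neutrophil list to at most 7.84 CPM. The endothelial list reached 14.5 CPM with Clec4g and Ptprb at 0, the lymphocyte list 0.609 CPM and the stellate list 10.3 CPM. The cholangiocyte list was highest at ZT0 (17.4 to 32.5 CPM) and the erythroid list at ZT18 (8.80 to 293 CPM). Mitochondrially encoded transcripts took from 12.9% of UMIs in ZT12C to 24.3% in ZT12A. Because the files hold hepatocytes only, no other cell type was at hand to measure free RNA, and fewer expressing cells and less RNA per cell cannot be told apart in the sums per library.

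Of the 10 genes, 6 were higher in both ZT6 libraries than in all the other 8 libraries: Fos, Junb, Atf3, Ier2, Nr4a1 and Socs3. Across all 8908 tested genes, 5.68% stood apart in that way. An edgeR quasi-likelihood test of any difference among the 4 times called 5 of the 10 genes at an adjusted p under 0.05 (Fos, Jun, Nr4a1, Socs3 and Cxcl1), against 6.58% of all genes tested. All 10 had an unadjusted p under 0.05 in that test, as did 2007 of all 8908 genes tested. With the library letter as a block, which pairs ZT0 and ZT12 libraries, the time test called 8 of the 10, against 11.1% of all genes: Egr1 (adjusted p = 0.00435), Junb (0.00990), Atf3 (0.0258) and Cebpb (0.0355) then passed, and Cxcl1 did not (0.0851). That block also takes in the ZT6 and ZT18 libraries, which the letters do not pair, so these added calls carry that limit.

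**Figure D1:**
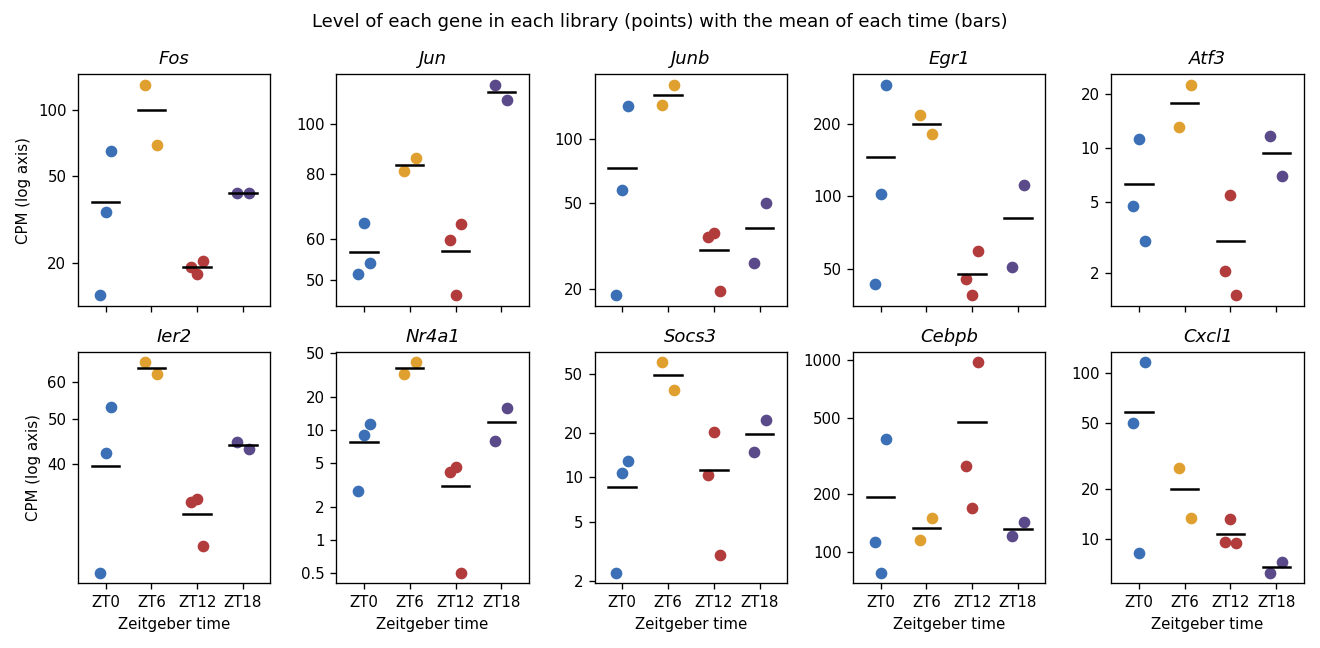
Level of each gene in CPM on a log axis, by Zeitgeber time; points are libraries and bars are means of 2 or 3 libraries. Fos, Junb, Atf3, Ier2, Nr4a1 and Socs3 have their 2 highest points at ZT6, Jun has them at ZT18, and Cebpb reaches its highest point, 968 CPM, at ZT12.

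Among the AP-1 subunits, Fos was at 130 and 69.5 CPM in the ZT6 libraries. At ZT0 it was at 14.3, 34.5 and 65.2 CPM in A, B and C, at ZT12 at 19.2, 17.9 and 20.6 CPM, and at ZT18 at 41.8 and 42.0 CPM. The ZT6 libraries were highest, ZT12 was low and narrow, and the ZT0 libraries spanned the ZT12 and ZT18 values. The time test gave an adjusted p of 0.0150 (edgeR), and the call was lost without ZT6A (0.130) or without ZT12A (0.0541).

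Junb, a partner of Fos that acts more weakly than Jun on many AP-1 sites, had 143 and 178 CPM at ZT6. Its values were 18.7, 57.7 and 142 CPM at ZT0, 35.1, 36.4 and 19.6 CPM at ZT12, and 26.4 and 50.4 CPM at ZT18. ZT0C reached the level of ZT6A, and the other libraries lay well below it. The edgeR time test missed the threshold for Junb (adjusted p = 0.0503).

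Jun followed a different order, with its highest values, 119 and 111 CPM, in the ZT18 libraries. It was at 81.1 and 85.8 CPM at ZT6, at 51.5, 64.5 and 54.0 CPM at ZT0, and at 59.8, 46.7 and 64.3 CPM at ZT12. Both ZT18 libraries were above all others, as were 6.14% of all genes, both ZT6 libraries came next, and ZT0 and ZT12 overlapped. The adjusted p was 0.00785 (edgeR), and the call was lost without ZT18A (0.0754), without ZT18B (0.0649) or without both (0.290). The sample index gives both ZT18 libraries, and no other, index column 4, so time and index column cannot be told apart for Jun.

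Of the other early transcription factors, Nr4a1 was at 31.9 and 41.0 CPM at ZT6. Elsewhere it was low: 2.79, 9.07 and 11.3 CPM at ZT0, 4.12, 4.62 and 0.502 CPM at ZT12, and 7.86 and 15.9 CPM at ZT18. The ZT12C value is a single UMI, below the floor of 3 UMIs that a count of 0 allows. The ZT6 libraries were separate from the rest, and the adjusted p was 0.00625 (edgeR). Without ZT6B the adjusted p was 0.0543.

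Egr1 did not separate by time in this way, because its highest library was ZT0C at 291 CPM. The other ZT0 libraries were at 43.3 and 102 CPM, the ZT6 libraries at 217 and 183 CPM, the ZT12 libraries at 45.4, 38.8 and 59.2 CPM, and the ZT18 libraries at 50.9 and 112 CPM. The ZT12 libraries were low and close together, and the ZT0 libraries covered the range of all the others except the lowest ZT12 value. The edgeR time test gave an adjusted p of 0.0777.

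Ier2 had 66.2 and 62.6 CPM at ZT6 and a narrow range elsewhere. It was at 23.2, 42.2 and 53.2 CPM at ZT0, at 33, 33.6 and 26.6 CPM at ZT12, and at 44.6 and 43.1 CPM at ZT18. Atf3, the rarest of the 10 genes in these counts, was at 13 and 22.4 CPM at ZT6, at 4.71, 11.1 and 3.04 CPM at ZT0, at 2.06, 5.46 and 1.51 CPM at ZT12, and at 11.6 and 7.01 CPM at ZT18. Both genes were highest at ZT6 and lowest or nearly so at ZT12, and neither passed the edgeR time test (adjusted p of 0.0945 for Ier2 and 0.0965 for Atf3). The Atf3 values in ZT12A and ZT12C rest on 3 UMIs each.

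Among the cytokine-response genes, Socs3 was at 59.5 and 38.6 CPM at ZT6. It was at 2.27, 10.7 and 12.8 CPM at ZT0, at 10.3, 20.2 and 3.01 CPM at ZT12, and at 14.8 and 24.5 CPM at ZT18. Both ZT6 libraries were above the rest, and the other times overlapped. The adjusted p was 0.0439 (edgeR). The call was lost with DESeq2 (adjusted p = 0.129) and, by edgeR, with cells of at most 20% mitochondrial UMIs (0.0747). Leaving out ZT0B, ZT6A, ZT6B, ZT12A, ZT18A or ZT18B each ended the call too.

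Cxcl1 was lowest in both ZT18 libraries, at 6.29 and 7.28 CPM, below all others, as were 7.44% of all genes. For these libraries, time and index column cannot be told apart. At ZT0 it was at 49.9, 8.32 and 116 CPM. It was at 26.8 and 13.5 CPM at ZT6 and at 9.62, 13.3 and 9.54 CPM at ZT12. ZT0C and ZT0A stood above every other library, while ZT0B was among the lowest. The adjusted p of 0.0360 (edgeR) did not survive the loss of any library other than ZT0B, with values of 0.0572 to 0.118 without each of the other 9.

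Cebpb had its highest value at ZT12, where it was at 279, 169 and 968 CPM. It was at 113, 77.7 and 389 CPM at ZT0, at 115 and 151 CPM at ZT6, and at 120 and 143 CPM at ZT18. The C library was the highest at ZT0 and at ZT12, and the times overlapped (adjusted p = 0.205, edgeR).

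The direct contrast of ZT12 with ZT0 called none of the 10 genes by edgeR, against 3.44% of all genes tested. An unadjusted p under 0.05 was found for 5 (Cxcl1, Egr1, Fos, Junb and Nr4a1, all lower at ZT12), and for 1385 of all 8908 genes. Scaling by library size alone moved the median difference of all genes to 0.13 (log2) and the calls from 155 higher of 306 to 202 higher of 303. Without a block, the Cebpb difference was 1.13 ± 0.57 on the log2 scale (SE, adjusted p = 0.364), and the Egr1 difference was -1.71 ± 0.49 (adjusted p = 0.0808). The C libraries decided much of both: Cebpb was 0.15 without ZT12C and 2.04 without ZT0C, and Egr1 was -0.80 without ZT0C. Cebpb was also 0.76 without ZT0B. Libraries of these 2 times with the same letter deviated together from their group means, and share an index column, so the fit with the letter as a block applies here. In that fit, which called 5.66% of all genes, 2 of the 10 genes passed: Cebpb was higher at ZT12 by 1.10 ± 0.24 (SE, log2, adjusted p = 0.0139) and Egr1 lower (-1.41 ± 0.35, adjusted p = 0.0319). Cebpb was higher at ZT12 in 3 of 3 letters, from 113 to 279 CPM in A, from 77.7 to 169 CPM in B and from 389 to 968 CPM in C. In CPM, Egr1 was lower at ZT12 in B and C but not in A (43.3 CPM at ZT0 and 45.4 CPM at ZT12). The order in A depends on the scaling: the TMM factors used by the fit (0.8876 in ZT0A, 1.024 in ZT12A) reverse it. In a blocked fit of the ZT0 and ZT12 libraries alone, chosen after the data had been seen, which called 4.74% of all genes, the adjusted p was 0.00627 for Cebpb and 0.0507 for Egr1.

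The contrast of ZT18 with ZT6 also called none of the 10 genes by edgeR, against 3.79% of all genes tested. Both ZT6 libraries carry index column 7 and both ZT18 libraries index column 4, so time and index column cannot be told apart in it. The lowest adjusted p was that of Junb, with a log2 difference of -1.98 ± 0.62 (SE, adjusted p = 0.0946), followed by Nr4a1 (-1.52 ± 0.53, adjusted p = 0.128). Fos (lower) and Jun (higher at ZT18) were the others of the 4 genes with an unadjusted p under 0.05. Of all 8908 genes tested, 1744 had such a p in this contrast. A test of a 24-h sine wave called none of the 10 genes by edgeR either, against 5.14% of all genes. Cxcl1, Junb and Egr1 had an unadjusted p under 0.05 in it, as did 1816 of all 8908 genes. DESeq2 called 1 of the 10 in the sine-wave test (8.89% of all genes). It called 1 in ZT12 against ZT0 (4.19%) and 0 in ZT18 against ZT6 (4.19%).

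Position along the liver lobule was the other axis of the design. Blood enters the lobule at the portal side and leaves at the central vein, and hepatocytes along this path differ in metabolism. Cells were ordered within each library by 8 periportal landmarks (such as Cyp2f2 and Ass1) and 8 pericentral landmarks (such as Cyp2e1 and Oat), and the 2 outer zones of the order (of 3 equal zones) were compared with the library as a block. None of the 10 genes is a landmark. Of the 10, 6 differed between the zones, against 24.8% of all 8909 genes tested that are not landmarks: Cxcl1, Fos, Junb and Egr1 were higher periportally (12.2% of all genes were) and Cebpb and Jun pericentrally (12.6%). Scaling by library size alone moved the median zone difference of all genes to -0.10 (log2) and the split of calls from 1085 periportal of 2209 to 697 of 2519, and under it Cxcl1, Fos, Junb, Cebpb and Jun kept their direction and call, while Egr1 lost its call.

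**Figure D2:**
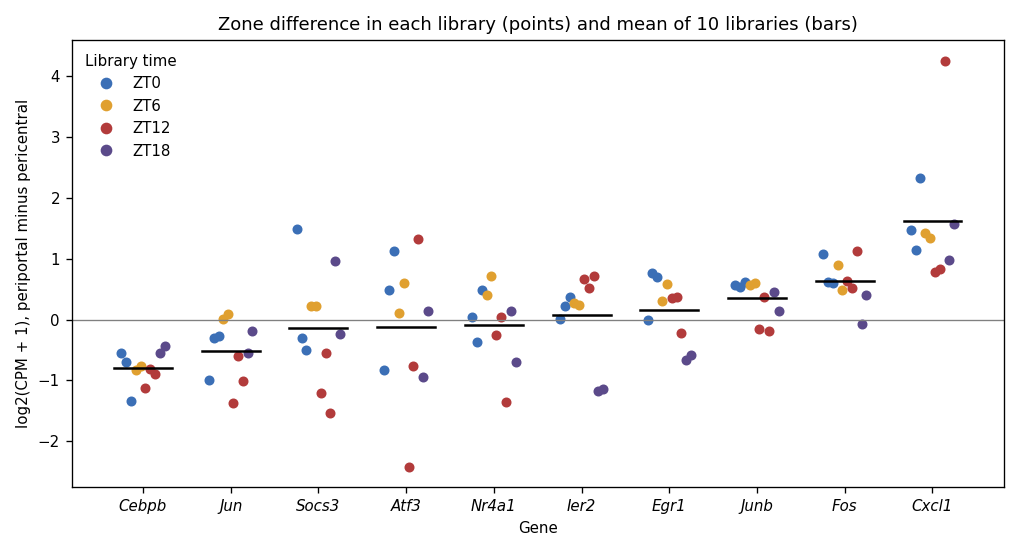
Difference between the periportal and pericentral zones of each library, in log2(CPM + 1), for the 10 genes ordered by their mean; points are libraries coloured by time and bars are means of 10 libraries. Every Cxcl1 point is above 0 and every Cebpb point below 0, and the ZT18 points of Ier2 lie apart from its others.

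Cxcl1 had the largest zone difference of the 10 genes, 1.87 ± 0.16 on the log2 scale (SE, edgeR adjusted p = 1.05e-11), and was higher periportally in 10 of 10 libraries. In ZT0C it was at 221 CPM periportally and at 43.2 CPM pericentrally, and in ZT0A at 72.1 and 25.4 CPM. In the other libraries it ran from 11.1 to 39.2 CPM periportally and from 0 to 14.0 CPM pericentrally. The periportal zone was thus the higher one also in the libraries where the gene was rare, although ZT12C had 12 UMIs periportally and none pericentrally. Across 8 layers of the cell order, its level relative to the mean of the layers rose from 0.365 ± 0.294 in the most pericentral layer to 1.65 ± 0.46 in the most periportal (SD, n = 10 libraries).

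Fos was higher periportally by 0.75 ± 0.10 (SE, log2, adjusted p = 1.88e-07, edgeR), in 9 of 10 libraries by CPM. Its periportal and pericentral levels were 171 and 91.0 CPM in ZT6A, 82.6 and 58.4 CPM in ZT6B and 77.8 and 50.8 CPM in ZT0C. In ZT18A alone the pericentral level was the higher, at 46.0 against 43.5 CPM. Junb was higher periportally by 0.60 ± 0.08 (adjusted p = 7.47e-07, edgeR), in 8 of 10 libraries, the exceptions being ZT12A and ZT12C. Its levels were 172 and 116 CPM in ZT6A, 213 and 141 CPM in ZT6B and 159 and 104 CPM in ZT0C.

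Egr1 was higher periportally by 0.37 ± 0.11 (SE, log2, adjusted p = 0.0160, edgeR), in 6 of 10 libraries. The periportal level was 326 CPM against 201 CPM pericentrally in ZT0C and 242 against 195 CPM in ZT6A, whereas in ZT18B it was 96.9 against 146 CPM. The call was lost with DESeq2 (adjusted p = 0.196), with the cells split into 2 zones (0.0966) and without ZT0B (0.101), ZT0C (0.0783) or ZT6B (0.0610), and over all alternatives the adjusted p ran from 4.71e-05 to 0.196.

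Cebpb was the most strongly pericentral of the 10 genes, with a difference of -0.72 ± 0.07 (SE, log2, adjusted p = 1.40e-09, edgeR), in 10 of 10 libraries. Pericentral and periportal levels were 1298 and 699 CPM in ZT12C, 559 and 220 CPM in ZT0C and 154 and 86.8 CPM in ZT6A. The difference in log2(CPM + 1) ran from -1.34 in ZT0C to -0.43 in ZT18B. Its relative level fell from 1.41 ± 0.16 in the first layer to 0.747 ± 0.125 in the eighth (SD, n = 10 libraries). Jun was also higher pericentrally (-0.34 ± 0.10, adjusted p = 0.0138, edgeR), in 8 of 10 libraries, the exceptions being both ZT6 libraries. In ZT12A it was at 83.0 CPM pericentrally and 31.6 CPM periportally, and in ZT6A at 75.8 and 75.9 CPM. The Jun call was lost among cells with at least 2000 UMIs (adjusted p = 0.137), among cells with at most 20% mitochondrial UMIs (0.115) and without ZT0A (0.0686).

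**Figure D3:**
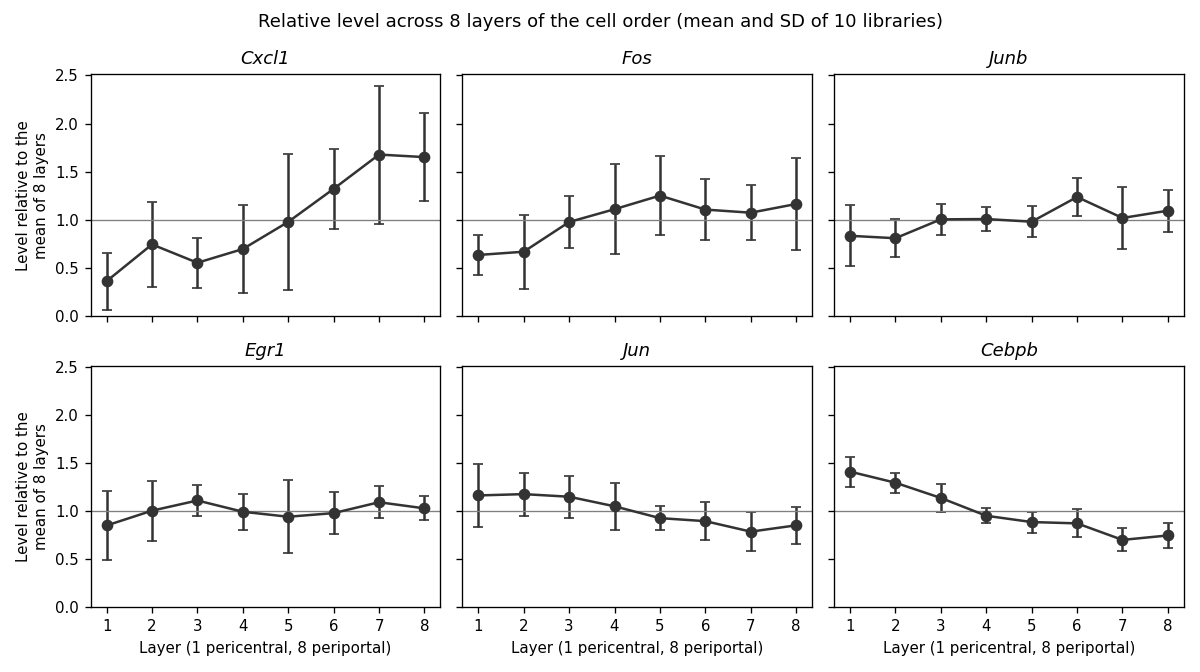
Level in each of 8 layers of the cell order, from pericentral (1) to periportal (8), relative to the mean of the layers in the same library; points are means and bars SDs of 10 libraries. Cxcl1 climbs towards the periportal end, reaching 1.65 ± 0.46, Cebpb descends to 0.747 ± 0.125.

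The 4 genes that did not pass the zone test were Ier2 (0.17 ± 0.13), Nr4a1 (0.31 ± 0.17), Atf3 (0.10 ± 0.23) and Socs3 (0.04 ± 0.15; log2, SE, edgeR adjusted p of 0.397, 0.204, 0.811 and 0.895). For Ier2 the zone difference depended on time: it was the only 1 of the 10 genes called by the zone-by-time test (adjusted p = 0.00693, edgeR), which called 0.0898% of all genes, or 8. Periportal and pericentral levels were 29.0 and 66.4 CPM in ZT18A and 26.7 and 59.95 CPM in ZT18B. In all 8 libraries of the other times the periportal level was the higher, from 23.6 against 23.3 CPM in ZT0A to 31.6 against 18.8 CPM in ZT12C. The mean difference in log2(CPM + 1) was 0.21 ± 0.18 at ZT0 (SD, n = 3), 0.26 ± 0.02 at ZT6 (n = 2), 0.63 ± 0.11 at ZT12 (n = 3) and -1.15 ± 0.02 at ZT18 (n = 2). The pericentral level at ZT18 was therefore close to that at ZT6 (60.1 and 59.6 CPM), while the periportal level was below both ZT6 libraries (72.9 and 70.6 CPM). The call was lost without ZT18A (adjusted p = 0.271) or ZT18B (0.223), with DESeq2 (0.246), with cells split into 2 zones (0.0542) and with cells of at most 20% mitochondrial UMIs (0.190), and ranged from 3.25e-05 to 0.99997 over all alternatives. Egr1 was also higher pericentrally in both ZT18 libraries (adjusted p = 0.0798). Both ZT18 libraries carry index column 4, so time and index column cannot be told apart, and the erythroid list summed to 8.80 to 293 CPM in them and to at most 8.32 CPM elsewhere. The part of either in the result was not tested.

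**Figure D4:**
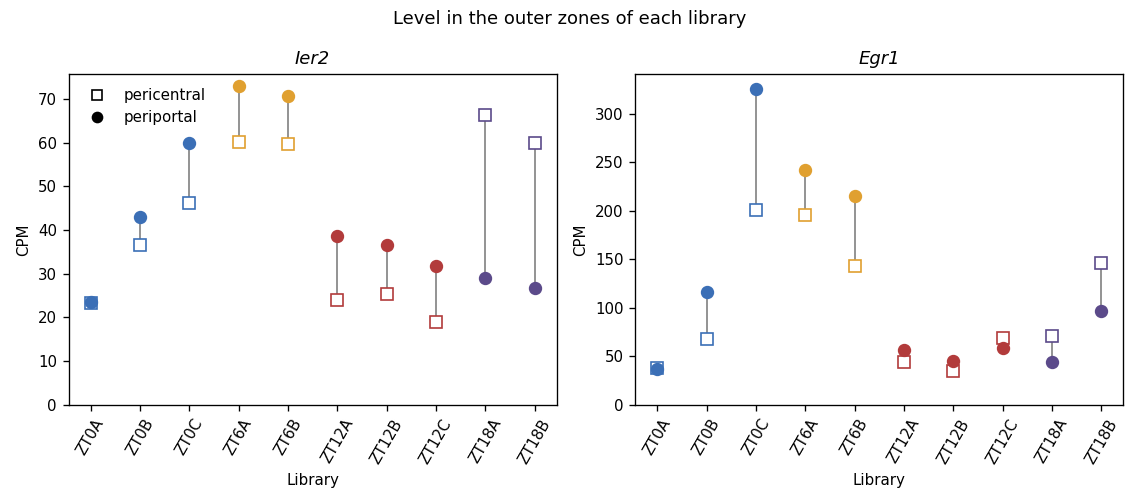
Ier2 and Egr1 in CPM in the pericentral zone (open squares) and the periportal zone (filled circles) of each library. In both ZT18 libraries the pericentral value is the higher for both genes, and for Ier2 the order is the opposite in the other 8 libraries.

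Across the 10 libraries, 16 of the 45 pairs of these genes were correlated (Pearson r of log2(CPM + 1), permutation test with 100000 resamples, two-sided, Benjamini-Hochberg adjusted p under 0.05 over the 45 pairs), 15 of them also by Spearman's rho. The positive pairs numbered 15, and all were among Fos, Ier2, Junb, Egr1, Nr4a1, Socs3 and Atf3. The share of correlated pairs among all genes was not measured, so the count has no background. The highest was that of Fos with Ier2 (r = 0.95, rho = 0.94, permutation p = 7e-05, adjusted p = 0.00315), and r was 0.94 without the 2 libraries farthest from the median of Fos. Junb with Egr1 had r = 0.91 and rho = 0.77 (permutation p = 0.00068, adjusted p = 0.00681), and Ier2 with Nr4a1 had r = 0.92 and rho = 0.92 (permutation p = 0.00019, adjusted p = 0.00428). The corresponding r without the 2 farthest libraries was 0.88 and 0.92. Socs3 correlated with Nr4a1 (r = 0.88, rho = 0.87, permutation p = 0.00121, adjusted p = 0.00681), and r remained 0.83 without the 2 farthest libraries.

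Jun and Cxcl1 had no correlation that passed with any of the others, and Cebpb had 1, a negative r of -0.76 with Atf3 (rho = -0.61, permutation p = 0.00676, adjusted p = 0.0234; -0.82 without the 2 farthest libraries). The libraries share times: in deviations from the time means r was 0.87 for Fos with Ier2, 0.85 for Junb with Egr1, 0.92 for Nr4a1 with Socs3, and 0.44 for Fos with Nr4a1. With both ZT6 libraries left out, a choice made after seeing the data, none of the 45 pairs passed, and r over the 8 remaining libraries was 0.93 for Fos with Ier2, 0.88 for Junb with Egr1 and 0.55 for Fos with Socs3.

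**Figure D5:**
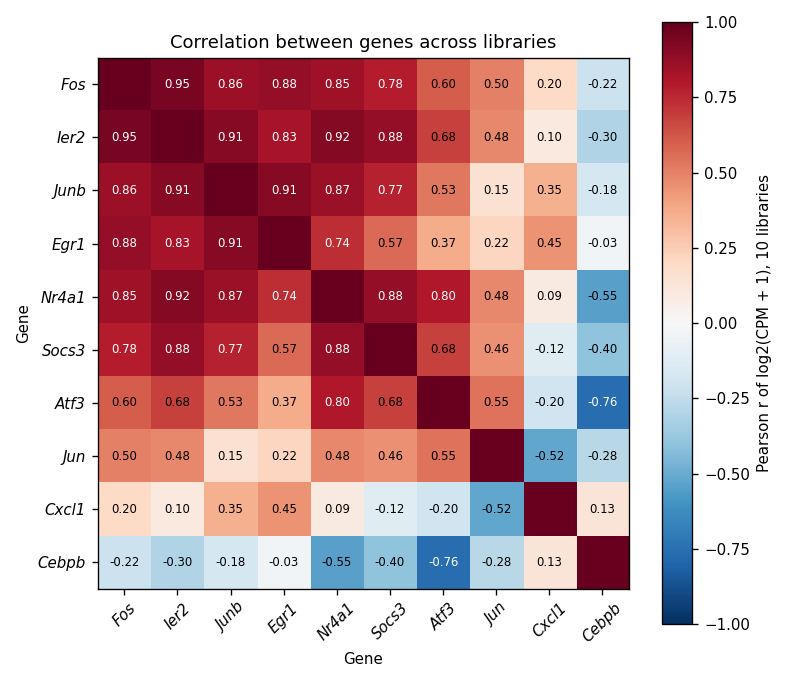
Pearson r of log2(CPM + 1) over 10 libraries for each pair of the 10 genes, on a scale from -1 (blue) to 1 (red). Fos, Ier2, Junb, Egr1, Nr4a1 and Socs3 form a red block, with r up to 0.95, and Jun, Cxcl1 and Cebpb lie outside it.

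Within single cells, UMIs of the 10 genes were spread thinly. Of 18378 cells, 6432 (35.0%) had no UMI of any of the 10, and 237 cells (1.29%) had UMIs of at least 5 of them, with 8 as the most in a cell. Library ZT0C held 141 of those 237 cells, 7.86% of its cells, and ZT6A held 47 (1.94%). With each cell thinned to 1000 UMIs, cells with at least 3 of the genes made up 6.35% of ZT0C, 4.42% of ZT6A and 4.86% of ZT6B, and 0.240% to 1.45% of the other libraries. ZT12C, whose summed level of the 10 genes was the highest of all libraries (1173 CPM, against 1138 CPM in ZT0C), was not among them, with 0.966%; most of its sum is the 968 CPM of Cebpb.

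The share of cells with a UMI depends on the depth of the cells as well as on the level: Junb was detected in 33.1% of cells in ZT0C, at 142 CPM, and in 25.9% in the shallower ZT6B, at 178 CPM, or 13.4% and 16.4% with each cell thinned to 1000 UMIs. Egr1 was detected in 49.1% of ZT0C cells (95% exact binomial interval 46.8 to 51.5) and in 8.40% of ZT18A cells (7.12 to 9.83), or 24.6% and 4.53% after thinning. Cebpb was detected in 77.3% of ZT12C cells (74.8 to 79.8) and in 16.2% of ZT0B cells (14.9 to 17.6), or 59.1% and 7.52% after thinning. Intervals and floors cover counting error only.

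Summed over the libraries, all 10 genes were seen in fewer cells than an even spread of their UMIs over cells by depth would give. Most genes of at least 20 CPM were too. Cxcl1 was seen in 1013 cells where an even spread gave 1192, a ratio of 0.850, below 1 in 10 of 10 libraries, and Egr1 had a ratio of 0.919 and Fos of 0.953, also below 1 in 10 of 10 libraries. Among all 4341 genes whose mean level reached 20 CPM, the median ratio was 0.992, with 90% of genes between 0.959 and 1.004. Cxcl1, Egr1 and Fos lay below that range, while Ier2 (0.978), Cebpb (0.968), Jun (0.963) and Junb (0.962) lay inside it. Atf3, Nr4a1 and Socs3 did not reach 20 CPM and were not set against it. The ratio was below 1 in 5 of 10 libraries for Socs3 and in 7 for Nr4a1 and Cebpb. A single cell held up to 11 UMIs of Cxcl1 and up to 12 of Egr1.

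Pairs of these genes were also found in the same cells. The number of cells with both, set against the number expected from their shares among cells of similar UMI total in the same library, was above expectation for 39 of the 45 pairs, with a median ratio of 1.11. The median ratio of all genes with each of the 10 lay between 1.003 and 1.028, so a ratio above 1 was common among all genes too. The share of all genes above 1, in sum or in all 10 libraries, is not given here. Junb with Egr1 (ratio 1.18, 953 cells against 804 expected), Egr1 with Ier2 (1.24, 573 against 461) and Socs3 with Cebpb (1.24, 307 against 248) exceeded 1 in all 10 libraries. Fos with Egr1 had a ratio of 1.25 (669 against 535 cells), above 1 in 9 of 10. For Egr1 the ratios with Junb, Ier2 and Fos exceeded the 99th percentile of its ratios with all genes (1.13). Genes outside the 10 did so too, among them Btg2 (1.23) and Txnip (1.20), both above Junb. The expected numbers did not take the zone of the cells into account, and Egr1, Fos and Junb were all higher periportally. The part of zone in these ratios was not tested. For Socs3 the ratio with Cebpb lay below that percentile (1.29), and genes outside the 10 reached 1.51.

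The wider group of immediate early genes was taken from a list of 37, of which 25 had counts high enough to test. The time test called 8 of the 25 (edgeR), against 6.58% of all genes, among them Per1 (adjusted p = 0.00191), Btg2 (0.00437) and Myc (0.0129). Btg2, an antiproliferative gene, was at 124 and 123 CPM at ZT6, 45.4, 47.0 and 36.1 CPM at ZT12, 48.2, 80.3 and 68.4 CPM at ZT0, and 90.2 and 110 CPM at ZT18, so its ZT6 libraries were also the highest. Per1, a component of the circadian clock, was highest at ZT12 instead, at 20.6, 17.5 and 28.6 CPM, against 5.06, 1.93 and 3.21 CPM at ZT0 (log2 difference 2.53 ± 0.35, adjusted p = 0.000894). Zfp36l1, which encodes a protein that destabilises mRNA, fell over the same interval (-1.13 ± 0.27, adjusted p = 0.0328). The median ZT12 minus ZT0 difference was 0.09 over the 25 genes, -0.000753 over all genes tested and -0.98 over the 10 genes themselves.

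By zone, 7 of those 25 genes were higher periportally and 4 pericentrally, against 12.2% and 12.6% of all genes. The periportal ones with the lowest p were Btg2 (0.76 ± 0.09), Gadd45g (0.52 ± 0.08), Btg1 (0.54 ± 0.09) and Trib1 (0.33 ± 0.08), and the pericentral ones were Cyr61 (-1.57 ± 0.26), Dusp6 (-0.51 ± 0.10), Gadd45a (-0.65 ± 0.18) and Fosl2 (-0.62 ± 0.20; log2, SE).

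Among other genes of cytokine and NF-kB feedback, 9 of 18 could be tested by time and 1 was called, against 6.58% of all genes: Cxcl10, a chemokine induced by interferon (adjusted p = 0.0150, edgeR). It was at 7.51, 4.01 and 13.5 CPM at ZT0 and at 0.629 and 0.269 CPM at ZT18, both below the floor of 3 UMIs. Like Cxcl1, it was highest in ZT0C. Lcn2, an acute-phase gene, was the 1 of 9 called in ZT18 against ZT6 (3.79% of all genes were). It was lower at ZT18 (-2.60 ± 0.65, adjusted p = 0.0419, edgeR). For the ZT18 libraries, time and index column cannot be told apart. By zone, 10 were tested and 4 were called, against 24.8% of all genes. Cish (0.72 ± 0.11), Bcl3 (0.53 ± 0.13) and Lcn2 (0.68 ± 0.24) were higher periportally (12.2% of all genes were). Socs2 (-0.68 ± 0.11), the growth hormone feedback gene of the Socs family, was higher pericentrally (12.6%). Of 22 tested receptors, kinases and factors that act upstream, the time test called 1, again near the share of all genes: Il6ra, which encodes the interleukin-6 receptor: 90.7, 75.9 and 103 CPM at ZT12 against 17.98, 21.8 and 40.01 CPM at ZT0 (log2 difference 1.62 ± 0.29, adjusted p = 0.00582). The ZT12 libraries of Il6ra were all above the others, whereas Socs3, the inhibitor that acts on that receptor's signal, was highest at ZT6.

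By zone, 6 of the 22 were called, a share near the 24.8% of all genes: Egfr (0.37 ± 0.06), Jak1 (0.32 ± 0.08), Met (0.29 ± 0.10) and Mapk3 (0.37 ± 0.14) were higher periportally, and Lifr (-0.41 ± 0.07) and Map2k1 (-0.38 ± 0.12) pericentrally.

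Heat-shock genes, which also respond to stress, had another order of times. Of 9 tested, 3 passed the time test (edgeR; 6.58% of all genes), and 3 were higher at ZT18 than at ZT6 (3.79% of all genes were called). Time and index column cannot be told apart at ZT18. Hsp90aa1, a chaperone, was at 414 and 496 CPM at ZT18 and at 89.4 and 77.3 CPM at ZT6 (log2 difference 2.53 ± 0.25, adjusted p = 0.000141). Hsph1 (2.79 ± 0.33) and Dnaja1 (1.30 ± 0.32) were the others. Hsp90aa1 and Hsph1 were thus lower at ZT6 than at ZT18, whereas Fos, Junb and Nr4a1 were highest at ZT6. By zone, 5 of 9 were higher pericentrally (12.6% of all genes), led by Hspa1b (-1.55 ± 0.16), and none periportally.

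The genes outside the 10 whose levels over the 10 libraries were most like those of Fos, among 4334 genes whose mean level reached 20 CPM, were Cul1 (r = 0.89), Atxn2 (0.89), Sqstm1 (0.88), Rela (0.87) and Sgk2 (0.87). Their range was narrower than that of Fos: Cul1 went from 25.1 to 46.5 CPM and Sqstm1 from 85.9 to 152 CPM. For Socs3 they were Foxq1 (r = 0.90), Mgat1 (0.90), Pim1 (0.87), Ap3b1 (0.87) and Psmd1 (0.87). Foxq1, a forkhead factor, went from 28.1 to 233 CPM and Pim1, a serine/threonine kinase, from 11.3 to 68.0 CPM, whereas Mgat1 went from 27.9 to 47.5 CPM. These genes were picked for their r, which is given as a description.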

How the data were processed

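UMI counts per gene and cell were deposited by the authors as raw counts, with cells numbered and no barcodes, so barcodes shared between libraries could not be counted. Per the submitters' processing notes, Cell Ranger and the builds hg19 and mm10 were used; their roles are not given in the sources used here. All 18378 deposited cells were kept, doublets included. Counts were summed per library, or per library and outer zone of the cell order, and tested with edgeR 4.0.16 (TMM scaling, quasi-likelihood F-tests, genes whose mean level reached 3 CPM), with Benjamini-Hochberg adjustment over all genes. The cell order within a library was the mean z-score of 8 periportal landmarks minus that of 8 pericentral ones. DESeq2 1.42.0, other filters, scalings, cell selections and leaving out libraries were alternatives. The fits were tested on simulated data.

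The 10 genes and the lists were chosen with earlier results of these data known. From each list, up to 4 called genes with the lowest p per test and direction are named, and the 5 genes most like Fos and Socs3. A listed gene that the rule names is not reported here. Letters pair the ZT0 and ZT12 libraries: deviations from group means correlated at 0.238 (A), 0.416 (B) and 0.465 (C), and the letters coincide with index columns 3, 7 and 5. No other pair of times had 3 shared letters. No pair of libraries of a group was a copy (chi-square of counts over genes at least 5.30 per degree of freedom).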

Additional observations from a re-analysis of the deposited data

Results flagged for a closer look

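The zone difference of Ier2 depended on time (edgeR zone-by-time test, adjusted p = 0.00693). In log2(CPM + 1), periportal minus pericentral, it was 0.21 ± 0.18 at ZT0 (SD, n = 3), 0.26 ± 0.02 at ZT6 (n = 2), 0.63 ± 0.11 at ZT12 (n = 3) and -1.15 ± 0.02 at ZT18 (n = 2). The opposite sign was seen in 2 of 2 ZT18 libraries.

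The Cxcl1 zone difference in ZT12C, 4.25 in log2(CPM + 1), lay far above those of the other 9 libraries, the next highest being 2.33 in ZT0C. The ZT12C value rests on 12 periportal UMIs and on 0 pericentral ones, and depends on the pseudocount of 1. This check of the highest and lowest library was made for the zone differences of the 10 genes, and chance gives such a value in about 1 of 20 groups; groups of 2 or 3 libraries were not examined.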

How the results depend on the processing

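The zone calls of Cxcl1, Fos, Junb and Cebpb held under all 19 alternatives, and between 5 and 7 of the 10 genes were called in each. Of all genes tested by zone, 2209 of 8909 were called in the test given above. The number was 1611 of 8909 with DESeq2, 1728 of 8929 with cells of at least 2000 UMIs and 2519 of 8909 with library size alone. It was 2327 of 14080 with no filter on low counts and 1673 of 4342 with a minimum of 20 CPM. The number called by the time test was 5 (6.58% of all genes, and shares of all genes follow each count). With DESeq2 it was also 5 (8.79%), with Atf3 in place of Socs3. It was 10 with no filter on low counts (7.5%), 2 with a minimum of 20 CPM (7 genes testable, 8.75%) and 2 without both ZT18 libraries (2.6%). It was 3 with cells of at most 20% mitochondrial UMIs (5.33%) and 8 with the replicate block (11.1%), in which letters do not pair the ZT6 and ZT18 libraries. It ran from 2 to 7 when a ZT0 or ZT12 library was left out (4.87% to 7.48%). The rhythm count of 0 (5.14% of all genes) became 1 with DESeq2 (8.89%), 3 with no filter (4.97%) and 2 without both ZT18 libraries (2.6%). It became 1 with the replicate block (8.41%), and ran from 0 to 2 without a ZT0 or ZT12 library (3.38% to 5.2%). The ZT12 against ZT0 count of 0 (3.44% of all genes) became 1 with DESeq2 (4.19%), 4 with no filter (3.28%) and 1 without the 5% of cells with the most UMIs (3.54%). It became 2 with the replicate block (5.66%) and 1 with that block in the ZT0 and ZT12 libraries alone (4.74%). It ran from 0 to 3 without a ZT0 or ZT12 library (2.4% to 3.51%). The block, which pairs these times, changed no call other than those of Cebpb and Egr1. The ZT18 against ZT6 count of 0 (3.79% of all genes) became 3 with no filter (4.17%). It became 2 with the replicate block (8.19%; Junb, adjusted p = 0.0294, and Nr4a1, 0.0299), but these times share only 2 letters, which do not pair them. It ran from 0 to 2 without a ZT0 or ZT12 library (3.76% to 5.53%). The zone-by-time count of 1 (8 of all 8909 genes) became 0 with DESeq2 (2 of 8909) and without both ZT18 libraries (1 of 8901). It also became 0 with cells of at most 20% mitochondrial UMIs (8 of 8965) and with 2 zones in place of 3 (6 of 8887). With no filter it became 2 (44 of 14080). It ran from 0 to 2 without a library, while all genes called ran from 1 of 8912 (without ZT18A) to 45 of 8902 (without ZT0C). The 16 correlated pairs became 0 without both ZT6 libraries, and ran from 12 to 19 without a library. The median share of cells with a UMI was 7.78% over the 10 genes and 3.67% with cells thinned to 1000 UMIs. The cause of these changes was not tested.

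Signs changed for 4 differences that passed the test in no setting. Leaving out a library gave -0.62 to 0.87 for Socs3 in ZT12 against ZT0, -0.17 to 0.32 for Cebpb in ZT18 against ZT6, -0.050 to 0.24 for Atf3 by zone and -0.08 to 0.13 for Socs3 by zone. Library size alone gave -0.011 for Cebpb in ZT18 against ZT6, and by zone -0.0086 for Atf3 and -0.076 for Socs3. Socs3 by zone was -0.0087 without both ZT18 libraries, -0.065 with cells of at most 20% mitochondrial UMIs and -0.0050 with cells of at least 2000 UMIs. Depth limits Atf3 and Nr4a1 most, with 1 to 3 UMIs in some ZT12 libraries.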
